A study of Homo sapiens with 9 samples.

Results

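Expression of 9 genes that are widely read as signs of a mesenchymal state was followed in a brain endothelial cell line through oxygen and glucose loss and recovery. The set holds 6 transcription factor genes (SNAI1, SNAI2, TWIST1, TWIST2, ZEB1 and ZEB2) and 3 genes of the matrix and cytoskeleton (FN1, VIM and POSTN). They were taken by symbol from a deposited table of 15570 genes, in which all 9 were found. The cells were hCMEC/D3, a line of immortalised endothelial cells derived from human brain microvessels. One group (OGD/R) had 4 h of oxygen and glucose deprivation and then 16 h in normal medium at 21% O2 and 5% CO2. A second group (OGD) was taken at the end of the 4 h deprivation step, in medium without glucose and in a gas mix of 95% N2 and 5% CO2. The third group was control cells with neither step. Each group had 3 libraries, numbered 1 to 3, and all 9 libraries came from the same cell line. Nothing states that replicates were separate cultures, so the p-values given here reflect the spread between these libraries alone, which may be technical.

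Transition of endothelial cells towards a mesenchymal state is a process in which cells loosen their junctions, take up a contractile and migratory shape and lay down matrix. SNAI, TWIST and ZEB proteins are its best known transcription factors. They bind short DNA elements called E-boxes and repress junction genes, and TGF-beta signalling is a classical inducer of them. Fibronectin, vimentin and periostin are the usual markers read on the other side of the switch, although cultured endothelial cells also make fibronectin and vimentin without any such transition.

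Values are FPKM, fragments per unit of transcript length and of sequencing depth, so levels of different genes can be set side by side. FPKM totals ranged from 442696 to 449248 in OGD/R, from 585947 to 605818 in OGD and from 454237 to 537878 in control. How many reads stand behind each library is unknown, and no counting error can be given. Of all genes, 10818 reached 1 FPKM in at least 3 libraries and were tested, among them all 9 members. Over all genes tested, the median log2 fold change was -0.31 in the comparison of OGD with control, 0.07 in that of OGD/R with control and 0.39 in that of OGD/R with OGD. Other scalings moved these medians, to between -0.53 and -0.0043, between -0.031 and 0.19, and between -0.013 and 0.74 in the same order. Each fold change was taken between means of log2(FPKM + 1), so that those of weakly expressed genes come out too small, and a relative value is a fold change minus the median of all genes. On the first principal component, which held 70.1% of the variance, OGD lay between 41.6 and 46.2, while control replicate 3 lay at 7.05 and the other controls at -14.5 and -9.97.

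The endothelial label was only partly borne out by its markers. Of 18 endothelial markers in the table, 10 stayed under 1 FPKM in every library, among them VWF, CLDN5, KDR, FLT1 and TEK. CLDN5, the main claudin of brain endothelium, did not exceed 0.101 FPKM, and VWF, von Willebrand factor, did not exceed 0.0881 FPKM. CDH5, VE-cadherin, read 1.44 to 2.62 FPKM in OGD/R, 0.27 to 0.399 FPKM in OGD and 0.991 to 1.39 FPKM in control. PECAM1 was also low, at 1.21 to 1.34 FPKM in OGD/R, 0.362 to 0.485 FPKM in OGD and 0.871 to 1.55 FPKM in control. Some other markers of this list averaged well above 1 FPKM in each group. MCAM averaged 59.9 FPKM in OGD/R, 21.6 FPKM in OGD and 24.5 FPKM in control. ENG averaged 33.7, 6.65 and 13.8 FPKM in the same order, and EGFL7 averaged 9.83, 5.84 and 12.2 FPKM. All of the 9 members were above 1 FPKM in every library.

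The 9 genes did not move as a block. After deprivation alone, SNAI2, FN1, VIM and POSTN were higher and SNAI1 and TWIST1 were lower than in control cells. After reoxygenation, SNAI1, SNAI2, ZEB2, FN1 and VIM were higher than in control cells and POSTN did not differ from control past the test. SNAI1 and SNAI2, which encode closely related zinc finger repressors, changed in opposite directions in OGD.

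**Figure D1:**
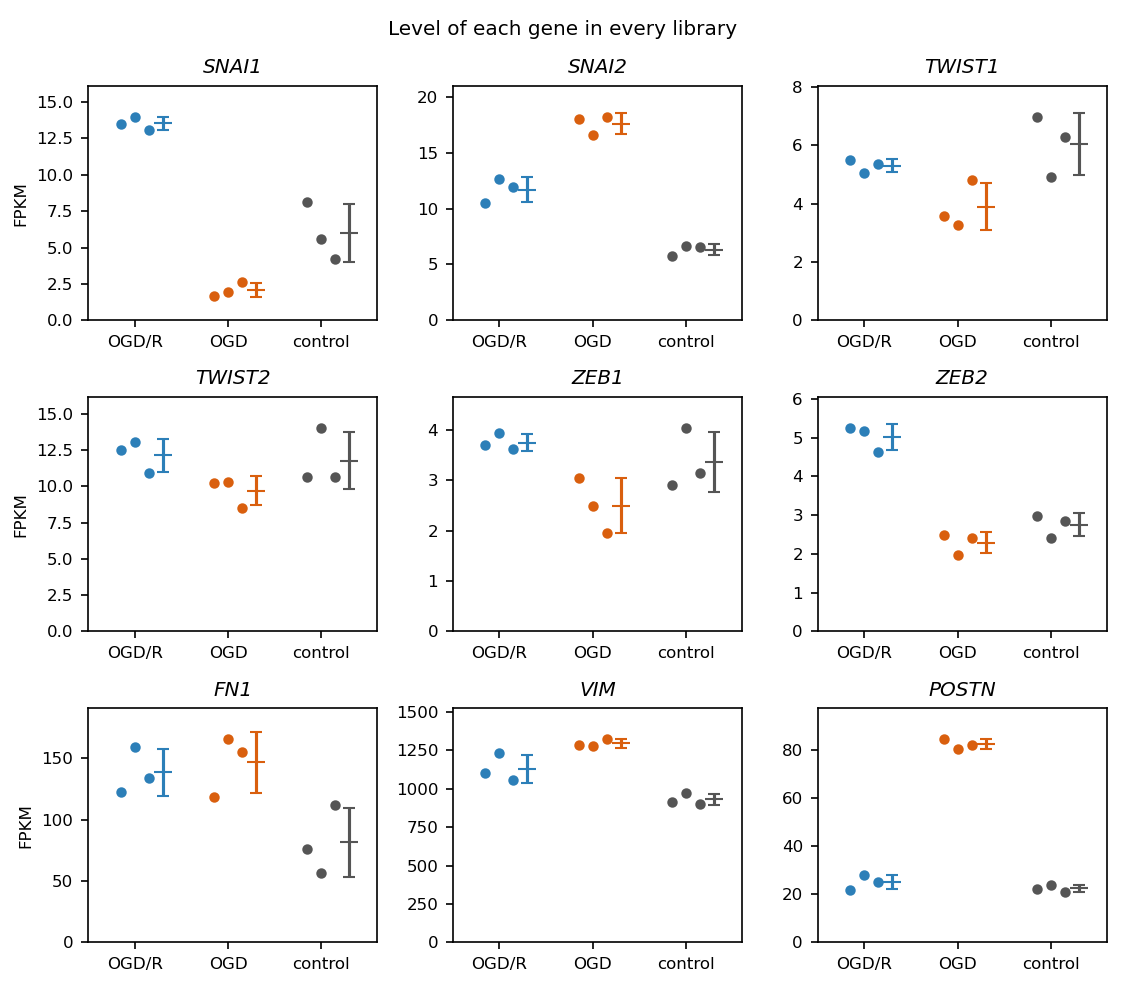
Level of each of the 9 genes in FPKM (vertical axes, from 0) in the 3 libraries of OGD/R, OGD and control; points are libraries, and the bar beside them is the mean with its SD. SNAI1 is lowest and POSTN highest in OGD, and ZEB2 stands above the other groups in OGD/R.

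SNAI1 (NCBI Gene 6615, GRCh38 chromosome 20, 49982980 to 49988886) encodes Snail, a repressor of E-cadherin. Its level was 13.5, 14.0004 and 13.1 FPKM in OGD/R replicates 1 to 3, against 1.71, 1.96 and 2.62 FPKM in OGD and 8.13, 5.62 and 4.24 FPKM in control. The 3 groups did not overlap, with OGD lowest, control between and OGD/R highest. SNAI1 fell in OGD relative to control (2.09 ± 0.472 FPKM in OGD and 5.998 ± 1.97 FPKM in control, SD, n = 3 each; log2 fold change -1.15, SE 0.18, limma adjusted p = 0.000343, relative value -0.84). It rose in OGD/R to 13.5 ± 0.454 FPKM, with a log2 fold change of 1.09 against control (SE 0.18, limma adjusted p = 0.000697) and of 2.24 against OGD (SE 0.18, limma adjusted p = 8.96e-07). Ranked by fold change from the highest, SNAI1 was 41st of the 10818 genes tested in OGD/R against OGD. In these bulk libraries, a change in the share of cells that express a gene and a change in its RNA per cell cannot be told apart.

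SNAI2 (NCBI Gene 6591, GRCh38 chromosome 8, 48917598 to 48921429) encodes Slug, the near relative of Snail. It read 10.5, 12.6 and 12.0 FPKM in OGD/R, against 18.0, 16.6 and 18.2 FPKM in OGD and 5.78, 6.61 and 6.57 FPKM in control. Here too no groups overlapped, but OGD was the highest and control the lowest. SNAI2 rose in OGD relative to control by 1.35 on the log2 scale (SE 0.11, limma adjusted p = 3.78e-06, relative value 1.66). In OGD/R it was higher than in control (log2 fold change 0.79, SE 0.11, limma adjusted p = 0.000213) and lower than in OGD (-0.55, SE 0.11, limma adjusted p = 0.000673). The fall from OGD was not called when libraries were scaled to a common FPKM total (-0.16, limma adjusted p = 0.291).

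The balance between the related transcripts therefore differed by group. The ratio of SNAI2 to SNAI1 was 0.775, 0.903 and 0.914 in OGD/R, against 10.6, 8.46 and 6.95 in OGD and 0.711, 1.18 and 1.55 in control. Such a ratio does not change when all values of a library are multiplied by 1 factor, but quantile normalization and length trend removal move genes of a library unequally. All OGD ratios lay above all others, and those of OGD/R lay within the range of the controls. SNAI3, the remaining family member, stayed under 1 FPKM in every library, with 0.261 FPKM as its highest value in OGD/R, 0.223 in OGD and 0.216 in control. The 6 transition factor genes together summed to 51.4 ± 2.19 FPKM in OGD/R, 38.1 ± 1.34 FPKM in OGD and 36.3 ± 2.20 FPKM in control (SD, n = 3 each). These sums are on the deposited scale, where FPKM totals were highest in OGD. SNAI2 alone averaged 17.6 FPKM in OGD and 6.32 FPKM in control. As a mean share of the FPKM total, each factor other than SNAI2 was lower in OGD than in control.

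**Figure D2:**
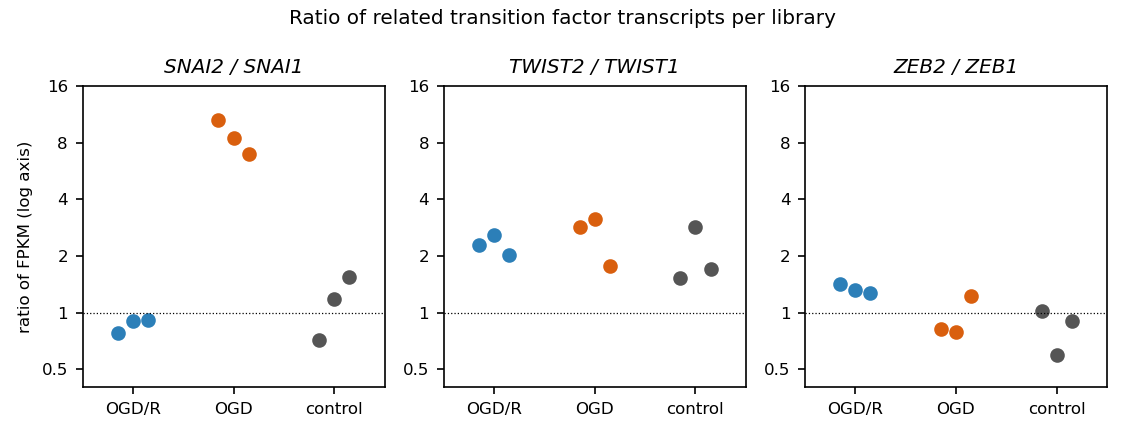
Ratio of FPKM between related transition factor genes in each library (vertical axes, log scale); points are libraries of OGD/R, OGD and control, and the dotted line marks a ratio of 1. SNAI2 over SNAI1 is 6.95 to 10.6 in OGD and at most 1.55 in any other library.

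TWIST1 (NCBI Gene 7291, GRCh38 chromosome 7, 19113047 to 19117636) encodes a basic helix-loop-helix factor that pairs with E proteins. Its level was 5.50, 5.06 and 5.37 FPKM in OGD/R, 3.59, 3.28 and 4.83 FPKM in OGD and 6.99, 4.91 and 6.29 FPKM in control. OGD/R and control overlapped, and OGD lay just under both. TWIST1 was lower in OGD than in control (log2 fold change -0.53, SE 0.15, limma adjusted p = 0.0107), but its relative value was only -0.22. Quantile normalization, median-of-ratios scaling and removal of the transcript length trend each ended that call (limma adjusted p from 0.144 to 0.483) as did leaving out OGD replicate 2 (limma adjusted p = 0.0551). Between OGD/R and OGD it passed the test narrowly (0.38, SE 0.15, limma adjusted p = 0.0418), with a relative value of -0.01. This call was lost without OGD replicate 1 or 2 or any OGD/R replicate (limma adjusted p from 0.0638 to 0.166), with no filter on low values (limma adjusted p = 0.0732) and under the same 3 rescalings, of which 2 turned the sign (0.10 with the length trend removed, -0.0078 after median-of-ratios scaling, -0.19 after quantile normalization).

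TWIST2 (NCBI Gene 117581, GRCh38 chromosome 2, 238848085 to 238910534), its close homologue, was called in no comparison when all 9 libraries were fitted on the deposited scale. It read 12.5, 13.05 and 10.9 FPKM in OGD/R, 10.3, 10.3 and 8.53 FPKM in OGD and 10.6, 14.1 and 10.7 FPKM in control. OGD lay just under both other groups, which overlapped. Its log2 fold changes were -0.25 in OGD against control (SE 0.13, limma adjusted p = 0.120), 0.05 in OGD/R against control (SE 0.13, limma adjusted p = 0.796) and 0.30 in OGD/R against OGD (SE 0.13, limma adjusted p = 0.0599). After scaling to a common FPKM total the first and last of these were called (-0.50, limma adjusted p = 0.0141, and 0.69, limma adjusted p = 0.00151). The last was also called with only the pair of groups in the fit (limma adjusted p = 0.0255) or without control replicate 2 (limma adjusted p = 0.0314). TWIST2 exceeded TWIST1 in every library, with ratios between 1.52 and 3.14.

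ZEB2 (NCBI Gene 9839, GRCh38 chromosome 2, 144384081 to 144520119) encodes a large zinc finger and homeodomain repressor also known as SIP1. Its level was 5.26, 5.17 and 4.62 FPKM in OGD/R, against 2.49, 1.97 and 2.41 FPKM in OGD and 2.98, 2.42 and 2.86 FPKM in control. The OGD/R libraries stood clear of all others, while OGD and control overlapped. ZEB2 rose in OGD/R relative to control (log2 fold change 0.68, SE 0.13, limma adjusted p = 0.00136, relative value 0.62) and relative to OGD (0.87, SE 0.13, limma adjusted p = 6.76e-05, relative value 0.48). In OGD against control it was not called (-0.19, SE 0.13, limma adjusted p = 0.217), except when libraries were scaled to a common FPKM total (-0.38, limma adjusted p = 0.0299).

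ZEB1 (NCBI Gene 6935, GRCh38 chromosome 10, 31318417 to 31529804), the relative of ZEB2 and a direct repressor of E-cadherin, changed less. It read 3.70, 3.93 and 3.62 FPKM in OGD/R, 3.05, 2.49 and 1.96 FPKM in OGD and 2.91, 4.05 and 3.15 FPKM in control. Control libraries overlapped both other groups. ZEB1 passed the test in OGD/R against OGD (0.45, SE 0.15, limma adjusted p = 0.0166), with a relative value of 0.06. It was no longer called with median-of-ratios scaling (0.10, limma adjusted p = 0.554), turned round without passing the test after quantile normalization (-0.13, limma adjusted p = 0.429) and length trend removal (-0.19, limma adjusted p = 0.265), and was lost without OGD replicate 3 (limma adjusted p = 0.0906) or OGD/R replicate 2 (limma adjusted p = 0.0509). It did not pass in OGD against control (-0.32, SE 0.15, limma adjusted p = 0.0804) or in OGD/R against control (0.13, SE 0.15, limma adjusted p = 0.517). OGD against control was called with libraries scaled to a common total (-0.52, limma adjusted p = 0.0166) or without OGD replicate 1 (limma adjusted p = 0.0437). The ratio of ZEB2 to ZEB1 was 1.42, 1.31 and 1.28 in OGD/R, 0.816, 0.791 and 1.23 in OGD and 1.02, 0.597 and 0.906 in control, so that OGD/R lay above both other groups.

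Among the 6 members with a promoter window in the RefSeq table, ZEB1 was the one with E-boxes of the kind that SNAI and ZEB proteins bind (CACCTG, or CAGGTG on the other strand). The RefSeq window shown (GRCh38.p14, plus strand, chr10:31318966-31319215, the 250 bases before 1 of the 7 ZEB1 starts listed) was chosen because it holds 2 matches to these letters, which stand in capitals. A further ZEB1 window holds 1.
ZEB1: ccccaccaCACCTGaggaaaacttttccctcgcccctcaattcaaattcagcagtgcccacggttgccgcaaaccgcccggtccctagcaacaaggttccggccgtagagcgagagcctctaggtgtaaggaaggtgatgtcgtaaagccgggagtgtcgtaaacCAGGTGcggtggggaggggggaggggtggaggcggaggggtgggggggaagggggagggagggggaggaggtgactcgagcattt
Counted from the transcript start, the matches begin at -242 and -85. Of 35116 promoter windows of this length, 17.5% hold at least 1 match on either strand. FN1, VIM, TWIST2, ZEB2 and POSTN have 1 window each, against 7 for ZEB1, and their windows hold none of these letters. With more windows searched, ZEB1 had more room for a match by letters alone, so the members cannot be compared evenly.

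POSTN (NCBI Gene 10631, GRCh38 chromosome 13, 37562585 to 37598768) encodes periostin, a secreted matrix protein of fibroblasts and healing tissue. Of the 9 genes it differed most between OGD and control. It read 21.97, 27.9 and 25.3 FPKM in OGD/R, against 84.8, 80.6 and 82.0 FPKM in OGD and 22.3, 23.9 and 21.1 FPKM in control. The 3 OGD libraries stood far above the rest, and OGD/R overlapped control. POSTN rose in OGD to 82.5 ± 2.14 FPKM, against 22.5 ± 1.41 FPKM in control (SD, n = 3 each; log2 fold change 1.83, SE 0.10, limma adjusted p = 1.65e-07), the 23rd highest of 10818 fold changes in that comparison. In OGD/R it fell to 25.1 ± 2.98 FPKM, below OGD by 1.69 on the log2 scale (log2 fold change -1.69, SE 0.10, limma adjusted p = 1.13e-07). OGD/R and control did not differ past the test (0.15, SE 0.10, limma adjusted p = 0.253), and the sign turned with the length trend removed (-0.064). TGFBI, which encodes the secreted protein most like periostin, had another course. Its level was 286, 379 and 319 FPKM in OGD/R, 144, 140.1 and 141 FPKM in OGD and 172, 129.9 and 138 FPKM in control. The OGD/R libraries stood above all others, and OGD overlapped control. TGFBI rose in OGD/R against control (1.16, SE 0.12, limma adjusted p = 3.80e-05) and against OGD (1.19, SE 0.12, limma adjusted p = 3.82e-06). TGFBI was not called in OGD against control (-0.03, SE 0.12, limma adjusted p = 0.817), although median-of-ratios scaling called it higher (0.34, limma adjusted p = 0.0141) and scaling to a common total lower (-0.31, limma adjusted p = 0.0366).

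FN1 (NCBI Gene 2335, GRCh38 chromosome 2, 215360865 to 215436068) encodes fibronectin, the matrix glycoprotein that integrins bind. It read 122, 159 and 134 FPKM in OGD/R, 119, 166 and 155 FPKM in OGD and 76.1, 56.2 and 112 FPKM in control. Both treated groups lay above all controls and overlapped each other, and control replicate 3 came close to the lowest OGD library. FN1 was higher in OGD than in control (147 ± 24.8 FPKM in OGD and 81.4 ± 28.2 FPKM in control, SD, n = 3 each; log2 fold change 0.88, SE 0.21, limma adjusted p = 0.00330, relative value 1.19). It was also higher in OGD/R than in control (138 ± 18.9 FPKM in OGD/R; 0.81, SE 0.21, limma adjusted p = 0.00808), a call lost with the length trend removed (0.49, limma adjusted p = 0.128). OGD/R and OGD did not differ past the test (-0.08, SE 0.21, limma adjusted p = 0.751). With the length trend removed FN1 was lower in OGD/R than in OGD (-0.83, limma adjusted p = 0.0121). The median annotated coding transcript of FN1 is 7898 bases long, the longest among the 9 genes.

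VIM (NCBI Gene 7431, GRCh38 chromosome 10, 17228241 to 17237593) encodes vimentin, the intermediate filament protein of mesenchymal and endothelial cells, and was the most abundant member in every library. Its level was 1101, 1233 and 1058 FPKM in OGD/R, 1283, 1275 and 1326 FPKM in OGD and 916, 973 and 899.7 FPKM in control. The groups did not overlap and OGD was highest. VIM was called higher in OGD than in control (0.48, SE 0.10, limma adjusted p = 0.00175) and in OGD/R than in control (0.28, SE 0.10, limma adjusted p = 0.0407), but not different between OGD/R and OGD (-0.20, SE 0.10, limma adjusted p = 0.0932). These small differences depended on the scale. As a share of the FPKM total VIM was 0.254% ± 0.0208 in OGD/R, 0.217% ± 0.00526 in OGD and 0.189% ± 0.0236 in control (SD, n = 3 each). By level it ranked 30th to 55th of all listed genes in OGD/R, 87th to 93rd in OGD and 75th to 94th in control. The call in OGD against control was lost with a common total (0.20, limma adjusted p = 0.0867) and turned round without passing the test after quantile normalization (-0.096, limma adjusted p = 0.541). Between OGD/R and OGD, quantile normalization called VIM higher (0.77, limma adjusted p = 0.000271) and median-of-ratios scaling called it lower (-0.67, limma adjusted p = 0.000631), as did length trend removal (-0.36, limma adjusted p = 0.00763), fitting only these groups (limma adjusted p = 0.0437) and leaving out OGD/R replicate 2 (limma adjusted p = 0.0424). Against control, VIM in OGD/R was not called with median-of-ratios scaling (limma adjusted p = 0.246), with no filter on low values (limma adjusted p = 0.0505), with only the pair of groups fitted (limma adjusted p = 0.119) and when any 1 library other than control replicate 2 was left out (limma adjusted p from 0.0515 to 0.131).

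The RefSeq windows before the starts of POSTN and FN1 (GRCh38.p14, both on the minus strand, chr13:37598769-37599018 and chr2:215436069-215436318, 250 bases each) are shown because these matrix genes were higher in OGD by every scaling tried, and capitals mark the motifs searched.
POSTN: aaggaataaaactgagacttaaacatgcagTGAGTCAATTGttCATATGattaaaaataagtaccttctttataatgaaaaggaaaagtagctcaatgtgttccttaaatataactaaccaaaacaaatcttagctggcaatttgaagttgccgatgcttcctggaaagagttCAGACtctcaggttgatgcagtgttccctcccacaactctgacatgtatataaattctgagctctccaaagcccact
FN1: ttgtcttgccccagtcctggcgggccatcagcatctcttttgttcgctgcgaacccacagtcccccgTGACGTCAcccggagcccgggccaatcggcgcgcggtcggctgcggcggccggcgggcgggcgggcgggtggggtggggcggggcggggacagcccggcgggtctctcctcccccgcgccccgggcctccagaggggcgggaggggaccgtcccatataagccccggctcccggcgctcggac
In POSTN the first run of capitals is a match to the AP-1 element (TGANTCA, from -220) that overlaps an E-box (CANNTG). The second is the E-box CATATG, of the kind bound by TWIST dimers, from -207, and the third is a SMAD box (CAGAC) from -77. Among all windows, searched on both strands, 6.57% hold the AP-1 letters, 61.8% any E-box, 2.63% CATATG and 38.0% the SMAD box. In FN1 the capitals are the core of a cyclic AMP response element (TGACGT), matched on both strands with overlapping letters from -183. That core is found in 7.10% of windows, and its motif was added after the values had been seen. A match of letters is no measure of binding.

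Over the 9 genes, 6 were called in OGD against control (4 higher, 2 lower), 5 in OGD/R against control (5 higher, 0 lower) and 6 in OGD/R against OGD (4 higher, 2 lower). Of all genes tested, 58.0% were called in OGD against control (11.3% higher, 46.7% lower), 41.2% in OGD/R against control (24.7% higher, 16.5% lower) and 70.7% in OGD/R against OGD (53.3% higher, 17.4% lower). The members' split moved with the scale. In OGD against control 3 were higher and 5 lower with a common total, 4 and 1 with median-of-ratios scaling or the length trend removed, and 3 and 1 with quantile normalization. Between OGD/R and OGD 5 were higher and 1 lower with a common total, 2 and 3 with median-of-ratios scaling, 3 and 2 with quantile normalization, and 2 and 4 with the length trend removed. Against control, OGD/R had 4 or 5 members higher and 0 lower under each of these. On the deposited scale, none of the 3 totals for the members, counted without direction, stood far from the shares of all genes. By direction they stood farther off in the comparisons with control. In OGD against control 4 of 9 were higher, beside 11.3%, and 2 lower, beside 46.7%. In OGD/R against control 5 of 9 were higher, beside 24.7%, and 0 lower, beside 16.5%. Both comparisons with control share the same control libraries. In the comparison of OGD/R with control limma called 0 members lower, also at an unadjusted p under 0.05. The groups did not overlap for 7 members in OGD against control (4 higher, 3 lower), beside 65.1% of all genes tested (13.2% higher, 51.8% lower). This held for 5 members in OGD/R against control (5 higher, 0 lower), beside 47.8% of all genes (28.5% higher, 19.3% lower). It held for 8 members in OGD/R against OGD (5 higher, 3 lower), beside 78.2% of all genes (57.8% higher, 20.4% lower). The median log2 fold change of the 9 genes was -0.19, 0.28 and 0.30 in the same order, beside -0.31, 0.07 and 0.39 over all genes. The split of calls over all genes depended on the scale. On the deposited scale 1218 genes were higher and 5054 lower in OGD against control, beside 608 and 7046 with a common total, 2863 and 2495 with median-of-ratios scaling, 2166 and 2427 with quantile normalization, and 2495 and 2483 with the length trend removed. The deposited scale gave 2673 higher and 1787 lower in OGD/R against control, beside 3408 and 942, 2393 and 2493, 2394 and 2504, and 2375 and 2393 in the same order of scalings. It gave 5770 higher and 1878 lower in OGD/R against OGD, beside 7739 and 842, 3525 and 3704, 3399 and 3386, and 3317 and 3421.

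**Figure D3:**
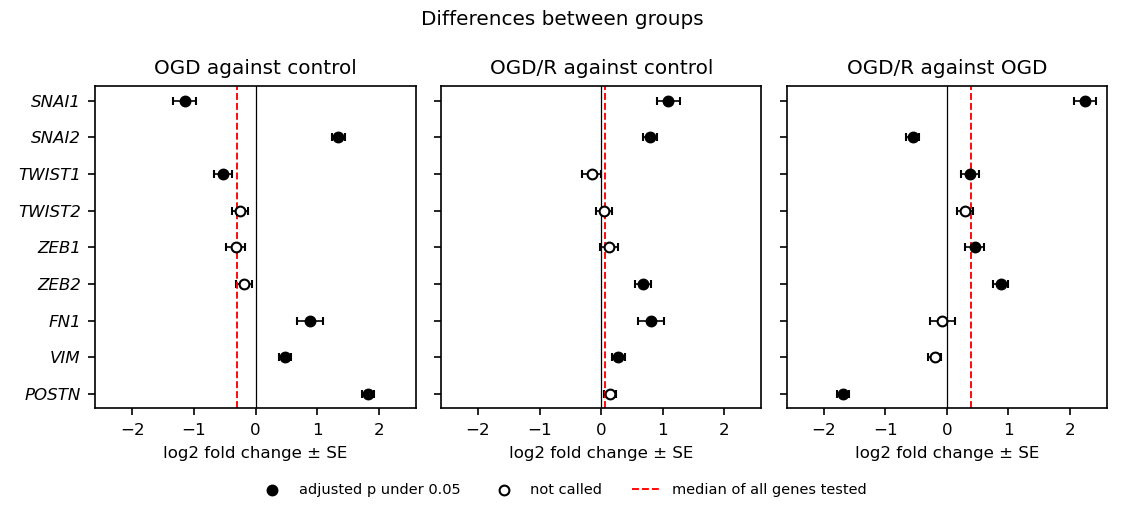
Log2 fold change (horizontal axes, with SE) of each gene in the 3 comparisons; filled points passed an adjusted p under 0.05, open points did not, and the dashed line is the median of all genes tested. SNAI1 lies at -1.15, 1.09 and 2.24 and POSTN at 1.83, 0.15 and -1.69 from left to right, and TWIST1, TWIST2 and ZEB1 lie within 0.22 of the dashed line.

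**Figure D4:**
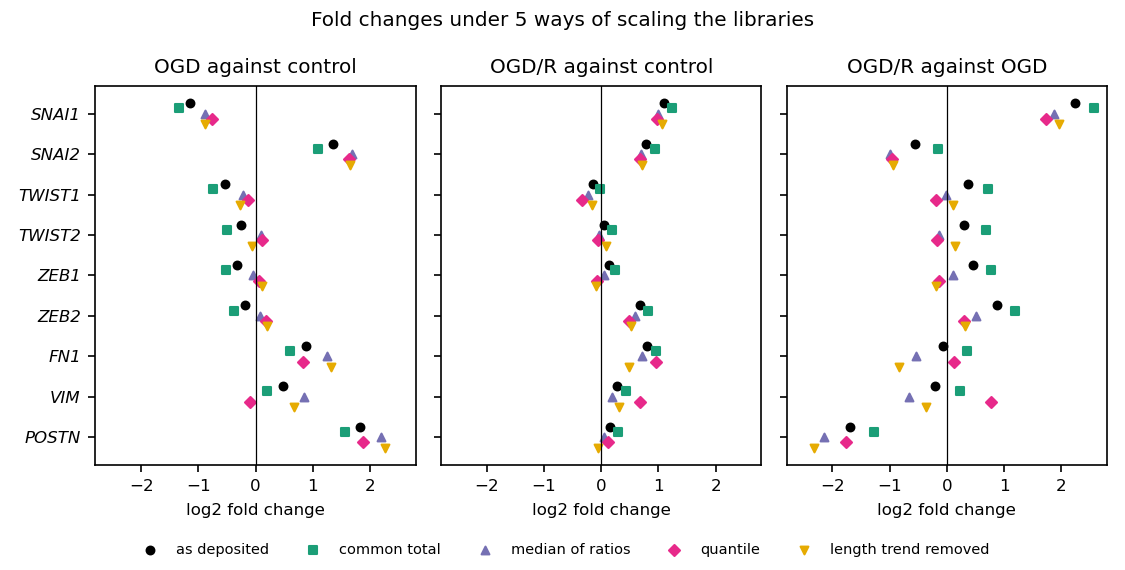
Log2 fold change (horizontal axes) of each gene under 5 scalings of the libraries, for the 3 comparisons. In OGD against control the signs of SNAI1, SNAI2, POSTN and FN1 hold under all 5, whereas VIM in OGD/R against OGD runs from -0.67 to 0.77.

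Profiles over the 9 libraries were compared as the root mean square difference of log2(FPKM + 1) after centring each gene on its own mean. For SNAI1 the nearest of all tested genes were ENG (0.13), the TGF-beta co-receptor endoglin, ATN1 (0.14) and ANGPTL4 (0.15), beside a spread of SNAI1 about its own mean of 0.94. Genes near SNAI2 included AMIGO2 (0.16) and SLC39A14 (0.16), with a spread of 0.56. POSTN was nearest to HERPUD1 (0.14), which takes part in degradation of proteins from the endoplasmic reticulum, ANKRD1 (0.18) and EVI2A (0.19), with a spread of 0.84. FN1 was nearest to FPR1 (0.20), NOP16 (0.21) and GADD45A (0.21), with a spread of 0.49. For ZEB2, TWIST1, VIM and ZEB1 the closest genes were SSRP1 (0.056), ZFYVE19 (0.081), PUM3 (0.059) and PALS2 (0.058), with spreads of 0.38, 0.27, 0.21 and 0.24. Within the set, TWIST2 and ZEB1 were the closest pair (0.098), and SNAI1 and POSTN the farthest apart (1.69).

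Other mesenchymal genes, among them collagens, lysyl oxidases and contractile genes, were set beside the members. Of 38 listed, 30 were tested, of which 4 were higher and 16 lower in OGD against control, 21 higher and 1 lower in OGD/R against control, and 26 higher and 2 lower in OGD/R against OGD. Their median log2 fold change was -0.31, 0.84 and 0.93 in that order, beside -0.31, 0.07 and 0.39 over all genes tested. Of all genes, 11.3% were higher and 46.7% lower in OGD against control. The shares were 24.7% and 16.5% in OGD/R against control, and 53.3% and 17.4% in OGD/R against OGD. Relative to all genes, the list's medians were -0.0019, 0.77 and 0.54 in the order of these comparisons. In OGD against control the list thus stood near all genes, and by its median it stood above them in both comparisons of OGD/R. TAGLN, the actin-binding protein transgelin, followed the OGD direction of SNAI2 and POSTN, with means of 174 FPKM in OGD and 53.6 FPKM in control (1.68, limma adjusted p = 1.76e-07). CD44, a hyaluronan receptor, was likewise higher in OGD than in control (log2 fold change 1.26). COL1A1 and COL1A2, the chains of type I collagen, had the directions of SNAI1 instead. COL1A1 averaged 29.3 FPKM in OGD/R, 2.24 FPKM in OGD and 6.29 FPKM in control, with a log2 fold change of -1.14 in OGD against control (limma adjusted p = 0.000501), 2.09 in OGD/R against control (limma adjusted p = 2.06e-05) and 3.22 in OGD/R against OGD (limma adjusted p = 1.20e-07). COL1A2 fell in OGD against control by 1.33 on the log2 scale and rose by 1.09 in OGD/R against control and by 2.42 in OGD/R against OGD. COL5A1 rose in OGD/R against OGD by 2.31. S100A4, a calcium-binding protein of motile cells, was lower in OGD than in control (-1.30, limma adjusted p = 0.00855), a call lost with quantile normalization (-0.97, limma adjusted p = 0.0611). LOXL2, a lysyl oxidase, rose in OGD/R against control by 1.86 on the log2 scale. LGALS1, galectin-1, was lower in OGD/R than in control (-0.54, limma adjusted p = 0.0212) and than in OGD (-0.85, limma adjusted p = 0.000590), and quantile normalization turned the second (0.29, limma adjusted p = 0.0257) and ended the first (limma adjusted p = 0.458). The first was also lost with no filter (limma adjusted p = 0.0665) and without control replicate 3, OGD/R replicate 2 or OGD/R replicate 3 (limma adjusted p from 0.0527 to 0.0991).

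TGF-beta and BMP signalling genes, upstream of the SNAI and ZEB genes in the textbook pathway, had 34 of 37 members tested. Of these 5 were higher and 17 lower in OGD against control, and 12 higher and 0 lower in OGD/R against control. In OGD/R against OGD 22 were higher and 1 lower. The medians were -0.34, 0.28 and 0.56 in that order, or -0.03, 0.22 and 0.18 relative to all genes. For this and the next lists, the shares of all genes tested were 11.3% higher and 46.7% lower in OGD against control. They were 24.7% and 16.5% in OGD/R against control, and 53.3% and 17.4% in OGD/R against OGD. TGFB1, a ligand, fell in OGD to 5.73 FPKM, against 14.1 FPKM in control (-1.15, limma adjusted p = 2.44e-05), while INHBA, an activin subunit, rose to 4.19 FPKM, against 1.51 FPKM in control (1.05, limma adjusted p = 5.62e-05). SMURF2, a ubiquitin ligase of the pathway, was the gene called lower in OGD/R against OGD (-0.30, limma adjusted p = 0.0470), a call lost without any 1 OGD replicate or without OGD/R replicate 1 or 3 (limma adjusted p from 0.0639 to 0.146), and with no filter on low values (limma adjusted p = 0.0723), and turned round without passing the test with a common total (0.0998, limma adjusted p = 0.527). SMAD3, a signal transducer, was higher in OGD/R than in control (1.25, limma adjusted p = 5.48e-05). Partners and turnover factors of the SNAI, TWIST and ZEB proteins, such as corepressors and ubiquitin ligases, were lower in OGD against control in 25 of 26 and higher in 0 (median -0.65), 4 higher and 3 lower in OGD/R against control, and 20 higher and 0 lower in OGD/R against OGD. Their medians relative to all genes were -0.34, 0.02 and 0.27 in the order of these comparisons. KDM1A, the histone demethylase that SNAI1 recruits, averaged 32.4 FPKM in OGD/R, 11.4 FPKM in OGD and 21.5 FPKM in control. Of 14 tested genes for fibronectin receptors and vimentin partners, 0 were higher and 11 lower in OGD against control. FN1 and VIM were higher there, while 46.7% of all genes were lower. In OGD/R against control 9 were higher and 0 lower, and in OGD/R against OGD 13 were higher and 0 lower. The list's medians relative to all genes were -0.34, 0.64 and 0.86 in that order. ITGA5, the alpha chain of the main fibronectin receptor, averaged 72.5 FPKM in OGD/R, 14.97 FPKM in OGD and 19.1 FPKM in control (1.89 for OGD/R against control, limma adjusted p = 2.54e-06). Of 2 tested paralogs of the members, TGFBI and SCX, 0 were called in OGD against control, 1 was higher in OGD/R against control and 2 were higher in OGD/R against OGD. Wherever a list in these paragraphs or among the cell type markers had 0 genes called by limma in a direction, it also had 0 at an unadjusted p under 0.05, except that 1 TGF-beta or BMP gene was lower in OGD/R against control.

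Markers of other cell types moved beside the members, and their part in these results was not tested. The lists share genes. Fibroblast markers COL1A1 and COL1A2 and the smooth muscle marker TAGLN were also among the other mesenchymal genes above. ENG was both an endothelial marker and in the TGF-beta and BMP list. Counts and sums of different lists therefore partly repeat the same genes. Summed FPKM of 10 fibroblast markers was 100.4 to 123 in OGD/R, 36.9 to 38.7 in OGD and 59.1 to 73.7 in control, with DCN, PDGFRA and COL3A1 under 1 FPKM throughout. For 10 pericyte and smooth muscle markers it was 161 to 166 in OGD/R, 185 to 192 in OGD and 68.1 to 87.7 in control, mostly from TAGLN, while MYH11 did not exceed 0.0574 FPKM. The 16 epithelial markers in the table summed to 252 to 271 FPKM in OGD/R, 133 to 142 in OGD and 172 to 207 in control, mostly from KRT18, and CDH1 and EPCAM were at or under 0.104 FPKM in every library. The endothelial markers summed to 119 to 135 FPKM in OGD/R, 45.1 to 45.7 in OGD and 55.8 to 71.5 in control. The 9 leukocyte markers summed to 28.1 to 30.1 FPKM in OGD/R, 21.7 to 22.8 in OGD and 18.2 to 21.6 in control, nearly all from CD68, and PTPRC did not exceed 0.1004 FPKM. Counts called higher and lower in OGD against control were 0 and 4 of 5 for fibroblast, 1 and 5 of 7 for pericyte and smooth muscle, 0 and 2 of 4 for epithelial, 0 and 4 of 7 for endothelial and 0 and 0 of 2 for leukocyte markers. In OGD/R against control they were 3 and 0, 5 and 0, 2 and 0, 4 and 0, and 2 and 0 in the same order. In OGD/R against OGD they were 4 and 0, 5 and 1, 3 and 0, 7 and 0, and 2 and 0. Of all genes tested, 11.3% were higher and 46.7% lower in OGD against control. The shares were 24.7% and 16.5% in OGD/R against control, and 53.3% and 17.4% in OGD/R against OGD. With so few tested genes per list, these counts were not tested against the shares of all genes. Relative to all genes, the medians of these lists in the same order were -0.33, -0.16, -0.19, -0.24 and 0.29 in OGD against control. They were 0.68, 0.82, 0.33, 0.63 and 0.49 in OGD/R against control, and 1.003, 0.51, 0.51, 0.37 and 0.18 in OGD/R against OGD. By its median, each marker list thus stood above all genes in both comparisons of OGD/R.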

How the data were processed

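RNA of 9 libraries, 3 per group, was analysed. Per the labels' protocols, libraries were made from total RNA with a SMARTER kit for mRNA. The authors deposited 1 table of FPKM, with a value for each gene in each library. GRCh38 was the build, per the submitters' processing notes. Aligner, counter, annotation and use of strand were not given in the sources used here. Without strand, VIM, ZEB1, ZEB2 and TWIST1 cannot be told apart from antisense RNAs that overlap them in GENCODE release 29. Low values held no common step (of 330 genes low in all libraries, 4 shared the most frequent ratio between control replicates 1 and 2), so depth is unknown and no counting interval is given.

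Genes that reached 1 FPKM in 3 or more of the 9 libraries were tested as log2(FPKM + 1), with no further scaling, in 1 limma 3.58.1 fit of 3 groups (R 4.3.3, trended prior, 6 residual and 6.33 prior degrees of freedom). Fold changes on that scale understate those of low genes. Tests were 2-sided with Benjamini-Hochberg adjustment over all genes tested and a threshold of 0.05. The fit was tried on simulated data with independent normal noise about the control means, in which a small set of genes was changed, in OGD alone. No library was shifted as a whole there, so that trial cannot speak to calls that depend on the scaling. The members, lists and alternatives were chosen with earlier results of these data known. Alternatives were another filter or none, a pseudocount of 0.1, 3 scalings, removal of the transcript length trend, a robust prior, fitting only the pair of groups compared, a replicate block and leaving out each library. Lengths were medians of coding transcripts in GENCODE release 29 (found for 99.5% of genes), and positions and promoters came from RefSeq for GRCh38.p14. By rule, the text could name the 9 members, SNAI3, TGFBI, up to 3 called genes with the largest fold change per list, direction and comparison in 10 lists, and the 3 genes nearest in profile to each member called in any comparison. Among the genes of that rule, 2 are not reported here. The other mesenchymal genes of the rule are printed; from the other lists, and for TWIST1, ZEB1, ZEB2 and VIM from the nearest genes, some were picked after values were seen. Marker genes named for a low, high or dominant level were likewise chosen after values were seen. Figures were drawn with matplotlib 3.10.9.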

Additional observations from a re-analysis of the deposited data

How the results depend on the processing

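The calls of SNAI1 in all 3 comparisons, of SNAI2, FN1 and POSTN in OGD against control, of SNAI2 and ZEB2 in OGD/R against control, and of ZEB2 and POSTN in OGD/R against OGD kept direction and threshold under all alternatives run. Total counts of called members stayed within 1.5 times of those reported, but their split by direction did not. The totals ranged from 4 to 8 for OGD against control, from 4 to 5 for OGD/R against control and from 5 to 8 for OGD/R against OGD. Members called lower ranged from 1 to 5 in OGD against control, and members called higher ranged from 2 to 5 and lower from 1 to 4 in OGD/R against OGD. Signs turned in the following cases; the cause was not tested. In OGD against control, median-of-ratios scaling gave 0.090 for TWIST2, 0.078 for ZEB2 and 0.34 for TGFBI. Quantile normalization gave 0.12 for TWIST2, 0.055 for ZEB1, 0.18 for ZEB2 and -0.096 for VIM. Removal of the length trend gave 0.11 for ZEB1, 0.20 for ZEB2 and 0.11 for TGFBI, and leaving out 1 library gave TGFBI between -0.11 and 0.084. In OGD/R against control, TWIST2 was -0.043 with median-of-ratios scaling and -0.062 with quantiles matched, and ranged from -0.015 to 0.17 without 1 library. ZEB1 was -0.076 after quantile normalization and -0.082 with the length trend removed, which gave -0.064 for POSTN. In OGD/R against OGD, median-of-ratios scaling gave -0.0078 for TWIST1 and -0.13 for TWIST2. Quantile normalization gave -0.19 for TWIST1, -0.18 for TWIST2, -0.13 for ZEB1, 0.13 for FN1, 0.77 for VIM and 0.29 for LGALS1. Length trend removal gave -0.19 for ZEB1. A common FPKM total gave 0.35 for FN1, 0.23 for VIM and 0.0998 for SMURF2, and FN1 ranged from -0.22 to 0.021 without 1 library.

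Same-numbered replicates of different groups showed no strong shared deviation (correlations of deviations from -0.20 to 0.15). With 3 libraries per group, this cannot tell whether the numbers pair the libraries, and the labels do not say. With the replicate block 6, 4 and 6 members were called in OGD against control, OGD/R against control and OGD/R against OGD, and VIM in OGD/R against control was the member lost (limma adjusted p = 0.0718). The SMURF2 call in OGD/R against OGD was also lost with the block (limma adjusted p = 0.0646). Depth is unknown, so the counting error of the low members could not be stated.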
